A study of Mus musculus with 20 samples.

Results

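Cytochrome P450 enzymes of families 1, 2 and 3 are heme proteins of the endoplasmic reticulum that add oxygen to drugs, steroids, environmental chemicals and fatty acids. Hepatocytes hold most of the body's supply, and many of the genes are switched on by receptors that sense foreign compounds: the aryl hydrocarbon receptor (Ahr) for family 1, CAR (Nr1i3) for Cyp2b and several Cyp2c genes, and PXR (Nr1i2) for Cyp3a. In mice the families have grown by local gene duplication, so most members sit next to close relatives, and several differ between male and female liver.

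The genes described here are those whose symbol begins with Cyp1, Cyp2 or Cyp3, followed by 1 letter and a number. On the array 65 probes carried 1 such symbol, and the mean of each gene's probes gave 38 genes, of 15252 genes with a symbol of their own. They make up the subfamilies Cyp1a (2 genes), Cyp1b (1), Cyp2a (3), Cyp2b (4), Cyp2c (8), Cyp2d (6), Cyp2j (4) and Cyp3a (5), with 1 gene each of Cyp2e, Cyp2f, Cyp2g, Cyp2s and Cyp2u. All 38 matched a RefSeq gene, and 1 of them, Cyp2d13, is annotated as a transcribed pseudogene. Cyp3a41a, whose symbol ends in a letter, fell outside the rule.

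There were 20 mice, 4 to a group, and the liver of each was measured. The 5 groups had received the Ppara-directed PPARa-M siRNA or PPARa siRNA, the control SEAP-M siRNA or GL3 siRNA, which are directed at reporter genes (secreted alkaline phosphatase and GL3), or only the vehicle, Ringer's solution. Every siRNA was given at 40 µg in a volume of 10% of body weight through the tail vein, a hydrodynamic injection that drives nucleic acid into hepatocytes and that the vehicle mice underwent too, and livers were taken 48 h later. Sex, strain and age, and what the M in a name means, are not given in the sources used here. Ppara encodes PPARα, the nuclear receptor that switches on fatty acid oxidation in liver.

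Each liver was hybridised against 1 pool of RNA from 4 vehicle mice, and all levels below are log2 ratios of a mouse to that pool, so a level of 0 equals the pool. This direction is likely rather than stated. It rests on the order in the sample titles and on the siRNA target itself, since Ppara lay below the pool in all PPARa-M siRNA mice (-0.59, -1.05, -0.59 and -0.62) and in 3 of the 4 PPARa siRNA mice (0.086, -0.42, -0.29 and -0.35). Between groups, a gene counts as called where limma's p, adjusted by Benjamini and Hochberg over all 15252 genes, is under 0.05. Whole-liver RNA cannot tell fewer cells of a type from less RNA per cell.

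Some mice stood apart. PPARa-M siRNA mice C and D had mean log2 ratios of 1.36 and 1.37 over 28 interferon-stimulated genes, against 0.10 and -0.080 in mice A and B of that group and between -0.28 and 0.19 in the other 16 mice. PPARa siRNA mouse D had a mean of 1.5 over 19 acute phase genes and of 2.58 over 9 neutrophil markers, both the highest of the 20 mice. The array of PPARa-M siRNA mouse B had the widest spread. Its interquartile range over all probes was 0.1245 on the log10 scale, against 0.0442 to 0.089 in all other mice. Within the PPARa-M siRNA group the arrays correlated at Pearson's r of 0.30 to 0.64 over all probes, within the other siRNA groups at 0.026 to 0.33, and within vehicle at -0.20 to -0.0031. Of 10 hepatocyte markers 8 were on the array, of which 2 were higher in PPARa-M siRNA than PPARa siRNA mice (Apob and Ttr) and none lower. Over all genes 4.79% were higher and 4.23% lower between these groups, a share to set beside each count here. In the same comparison erythroid markers had a median log2 fold change of -0.68 with 2 of 6 genes called, both lower (Alas2 and Ermap), cell cycle genes -0.53 with 4 of 15 lower, acute phase genes -0.54 with 4 of 19 lower, and neutrophil markers -0.80 with 1 of 9 lower (Ngp). Sex-biased liver genes outside P450 families 1 to 3 had a median of -0.61, with 1 of 7 lower (Cyp4a12a, itself a P450 gene) and none of the 7 above 0. The part of these differences in the P450 results was not tested. Values without PPARa-M siRNA mice C and D, a step chosen after seeing the data, stand beside the results where those mice lay apart from A and B. In those fits the group is mouse A and mouse B, the mouse with the widest array.

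The promoters of 5 of the 6 genes called between PPARa-M and PPARa siRNA show how the duplicated genes relate. For Cyp2c23, the other called gene, the annotation used here gave no promoter. They run from 250 bases before to 50 after the transcription start in the RefSeq annotation of GRCm38.p6, and capitals mark matches, on either strand, to any of 5 short motifs: TATAAA (the TATA box), AGGTCA (a nuclear receptor half-site), CAAAGTCCA (an HNF4 site), TGTTTAC (a forkhead site) and GGGCGG (a GC box). Cyp2c29 (chr19:39286835-39287134, plus strand) and Cyp2c38 (chr19:39463026-39463325, minus strand) have Cyp2c39 between them, while Cyp2j9 (chr4:96591436-96591735, minus strand) and Cyp2j6 (chr4:96553602-96553901, minus strand) are direct neighbours among protein-coding genes. Cyp3a16 lies at chr5:145469674-145469973 on the minus strand.
Cyp2c29: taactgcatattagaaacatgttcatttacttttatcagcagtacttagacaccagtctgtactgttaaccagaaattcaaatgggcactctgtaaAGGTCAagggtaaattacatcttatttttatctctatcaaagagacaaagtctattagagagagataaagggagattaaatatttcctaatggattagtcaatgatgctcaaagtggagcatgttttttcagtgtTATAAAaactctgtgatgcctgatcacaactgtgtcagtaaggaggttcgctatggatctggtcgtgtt
Cyp2c38: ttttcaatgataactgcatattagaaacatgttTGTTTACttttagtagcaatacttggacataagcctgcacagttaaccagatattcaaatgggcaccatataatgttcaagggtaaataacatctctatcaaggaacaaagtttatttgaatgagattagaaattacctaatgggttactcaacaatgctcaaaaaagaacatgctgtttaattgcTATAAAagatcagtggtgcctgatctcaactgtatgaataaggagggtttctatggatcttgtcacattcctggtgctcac
Cyp2j9: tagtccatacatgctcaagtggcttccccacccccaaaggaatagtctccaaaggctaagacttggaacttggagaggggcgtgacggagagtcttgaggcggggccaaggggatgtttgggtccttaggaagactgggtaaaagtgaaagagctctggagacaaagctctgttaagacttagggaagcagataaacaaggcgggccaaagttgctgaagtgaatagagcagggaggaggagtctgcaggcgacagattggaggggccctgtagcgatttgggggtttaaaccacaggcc
Cyp2j6: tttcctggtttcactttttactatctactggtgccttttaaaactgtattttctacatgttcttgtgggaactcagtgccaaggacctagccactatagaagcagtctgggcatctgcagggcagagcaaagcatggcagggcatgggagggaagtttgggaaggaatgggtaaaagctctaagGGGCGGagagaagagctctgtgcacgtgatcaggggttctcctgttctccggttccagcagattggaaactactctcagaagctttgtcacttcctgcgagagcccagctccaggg
Cyp3a16: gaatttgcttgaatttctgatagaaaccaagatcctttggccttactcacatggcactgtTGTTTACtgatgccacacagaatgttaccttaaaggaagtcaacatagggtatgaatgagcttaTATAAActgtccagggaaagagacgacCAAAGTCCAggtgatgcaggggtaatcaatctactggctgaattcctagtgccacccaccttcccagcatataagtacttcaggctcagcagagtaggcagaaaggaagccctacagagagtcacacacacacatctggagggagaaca

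Cyp2c29 and Cyp2c38 matched at 226 of 278 aligned bases (81.3%), and both carry a TATA box, at 19 and 31 bases before the annotated start. Cyp2c29 has a nuclear receptor half-site 154 bases before its start and Cyp2c38 a forkhead site 217 bases before its own. In Cyp3a16 a TATAAA match, an HNF4 site and a forkhead site begin 126, 99 and 190 bases before the start. That TATAAA lies further from the start than in Cyp2c29 and Cyp2c38, and whether it acts as a TATA box was not tested. Cyp2j6 has 1 GC box, 66 bases before the start, and Cyp2j9 none of the 5 motifs. No matches overlap in these 5 windows.

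Across the families the annotation gave 36 promoters for 33 of the 38 genes. TATAAA occurred in 21 of the 36 (58.3%), compared with 13.6% of all 32851 annotated promoters of the same length. AGGTCA occurred in 41.7% of the P450 promoters and in 16.3% of all, TGTTTAC in 19.4% and 3.65%, and CAAAGTCCA in 13.9% and 0.475%. GGGCGG went the other way, in 16.7% and 35.7%. A match is a string of letters and not a measured binding site, and neighbouring duplicated genes share sequence, so these promoters are not independent.

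**Figure D1:**
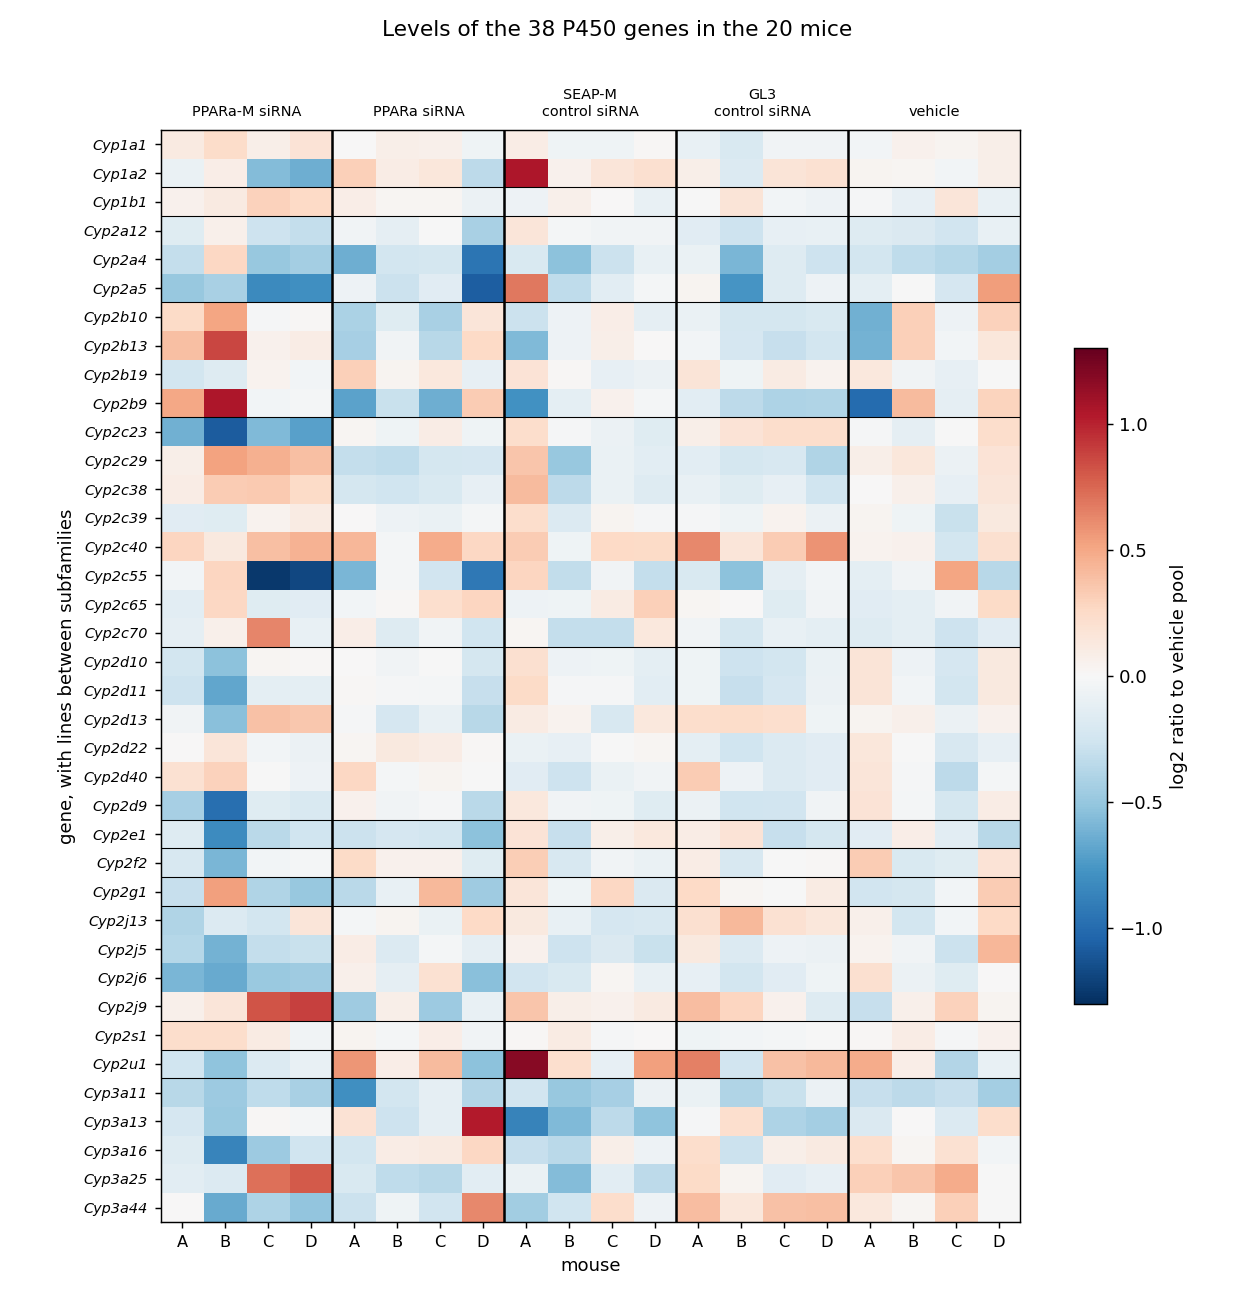
Log2 ratio to the vehicle pool (colour) of each of the 38 P450 genes (rows, with lines between subfamilies) in each of the 20 mice (columns, 4 per group). Cyp2c23 is below the pool in all 4 PPARa-M siRNA mice, between -1.08 and -0.58, and lies between -0.16 and 0.23 in the other 16 mice, while Cyp2c55, Cyp2j9 and Cyp3a25 differ between PPARa-M siRNA mice A and B and mice C and D.

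Cyp2c23 was the P450 gene that separated PPARa-M siRNA from every other group. Its product, which RefSeq also lists as Cyp2c44, is an epoxygenase of arachidonic acid. The log2 ratios were -0.62, -1.08, -0.58 and -0.71 in PPARa-M siRNA mice and 0.023, -0.058, 0.10 and -0.060 in PPARa siRNA mice. In the controls they were 0.23, -0.016, -0.072 and -0.16 with SEAP-M siRNA, 0.080, 0.18, 0.23 and 0.23 with GL3 siRNA, and -0.011, -0.12, -0.0050 and 0.22 with vehicle. The 4 PPARa-M siRNA mice lay below all 16 others, and mouse B was the lowest.

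In limma Cyp2c23 fell by 0.74 on the log2 scale in PPARa-M siRNA mice against SEAP-M mice (standard error 0.10, adjusted p = 0.00135), to 59.7% of the SEAP-M level. It fell by 0.77 against vehicle (standard error 0.10, adjusted p = 0.000590) and by 0.75 against PPARa siRNA (standard error 0.10, adjusted p = 0.000358). Both Ppara siRNAs together against both control siRNAs gave a fall of 0.46 (standard error 0.07, adjusted p = 0.00869). PPARa siRNA alone gave -0.18 against GL3 control siRNA (95% confidence interval -0.40 to 0.04, limma adjusted p = 1.00) and -0.021 against vehicle. The difference between the effects of the Ppara siRNAs, each against its own control, was -0.57 (standard error 0.15) and did not pass over all genes (adjusted p = 0.0810). Without PPARa-M siRNA mice C and D the falls were larger, 0.85 against SEAP-M control siRNA (adjusted p = 0.00678) and 0.88 against vehicle (adjusted p = 0.00162). A single probe measured this gene.

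The comparisons differed widely in how many P450 genes they called. PPARa-M siRNA against PPARa siRNA called 6 of the 38 genes (15.8%), where 9.02% of all genes were called. Of the 6, Cyp2c29, Cyp2c38 and Cyp2j9 were higher (4.79% of all genes) and Cyp2c23, Cyp2j6 and Cyp3a16 lower (4.23% of all genes). Against vehicle PPARa-M siRNA called 4 genes, all lower (Cyp2c23, Cyp2j5, Cyp2j6 and Cyp3a16), where 7.28% of all genes were called and 3.91% were lower. At an unadjusted p under 0.05 that comparison held 13 of the 38, with 23.3% of all genes. Against SEAP-M control siRNA only Cyp2c23 was called, and it was lower (2.63% of the members, with 2.54% of all genes called and 1.51% lower), while 14 of the 38 had an unadjusted p under 0.05, as did 18.8% of all genes. After quantile normalization between arrays the counts were 1 for PPARa-M siRNA against PPARa siRNA, 1 against vehicle and 0 against SEAP-M control siRNA, where Cyp2c23 had -0.56 (adjusted p = 0.0746). The share of all genes called after that step is not given here.

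PPARa siRNA changed no P450 gene past the threshold in limma. Against GL3 control siRNA 0 of 38 were called (0.0525% of all genes), and 3 had an unadjusted p under 0.05 (4.95% of all genes). Against vehicle 0 were called (0.0787% of all genes), and 3 had an unadjusted p under 0.05 (5.55% of all genes). The control siRNAs against vehicle likewise gave 0 calls in limma. For SEAP-M siRNA 0.00656% of all genes were called, and 2 of the 38, both lower, had an unadjusted p under 0.05 (5.85% of all genes). For GL3 siRNA 0.0131% were called, and 3 of the 38 had an unadjusted p under 0.05 (2.77% of all genes).

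Both Ppara siRNAs against both control siRNAs called only Cyp2c23 (0.216% of all genes). The difference between their effects called 0 in limma (0.879% of all genes), and 8 of the 38 had an unadjusted p under 0.05 (12.6% of all genes). An F test over the 5 groups called 3 of the 38, Cyp2c23, Cyp2c29 and Cyp2j6 (5.76% of all genes). These comparisons share groups, and their calls are not independent of each other.

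The P450 genes did not shift as a block. The median log2 fold change of the 38 between PPARa-M and SEAP-M siRNA was -0.074, beside -0.014 over all genes, with 17 members above 0 and 21 below. Their median size regardless of sign was 0.25, beside 0.11 over all genes. For PPARa siRNA against GL3 control siRNA the medians were -0.0086 and 0.0072, and the sizes 0.087 and 0.071. Between PPARa-M siRNA and PPARa siRNA the members had a median of -0.045 and a median size of 0.23, beside -0.033 and 0.13 over all genes. GL3 control siRNA against vehicle gave a size of 0.13 for the members, beside 0.060 over all genes. For SEAP-M control siRNA against vehicle the sizes were 0.084 and 0.075. A larger size than over all genes was thus not particular to PPARa-M siRNA.

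**Figure D2:**
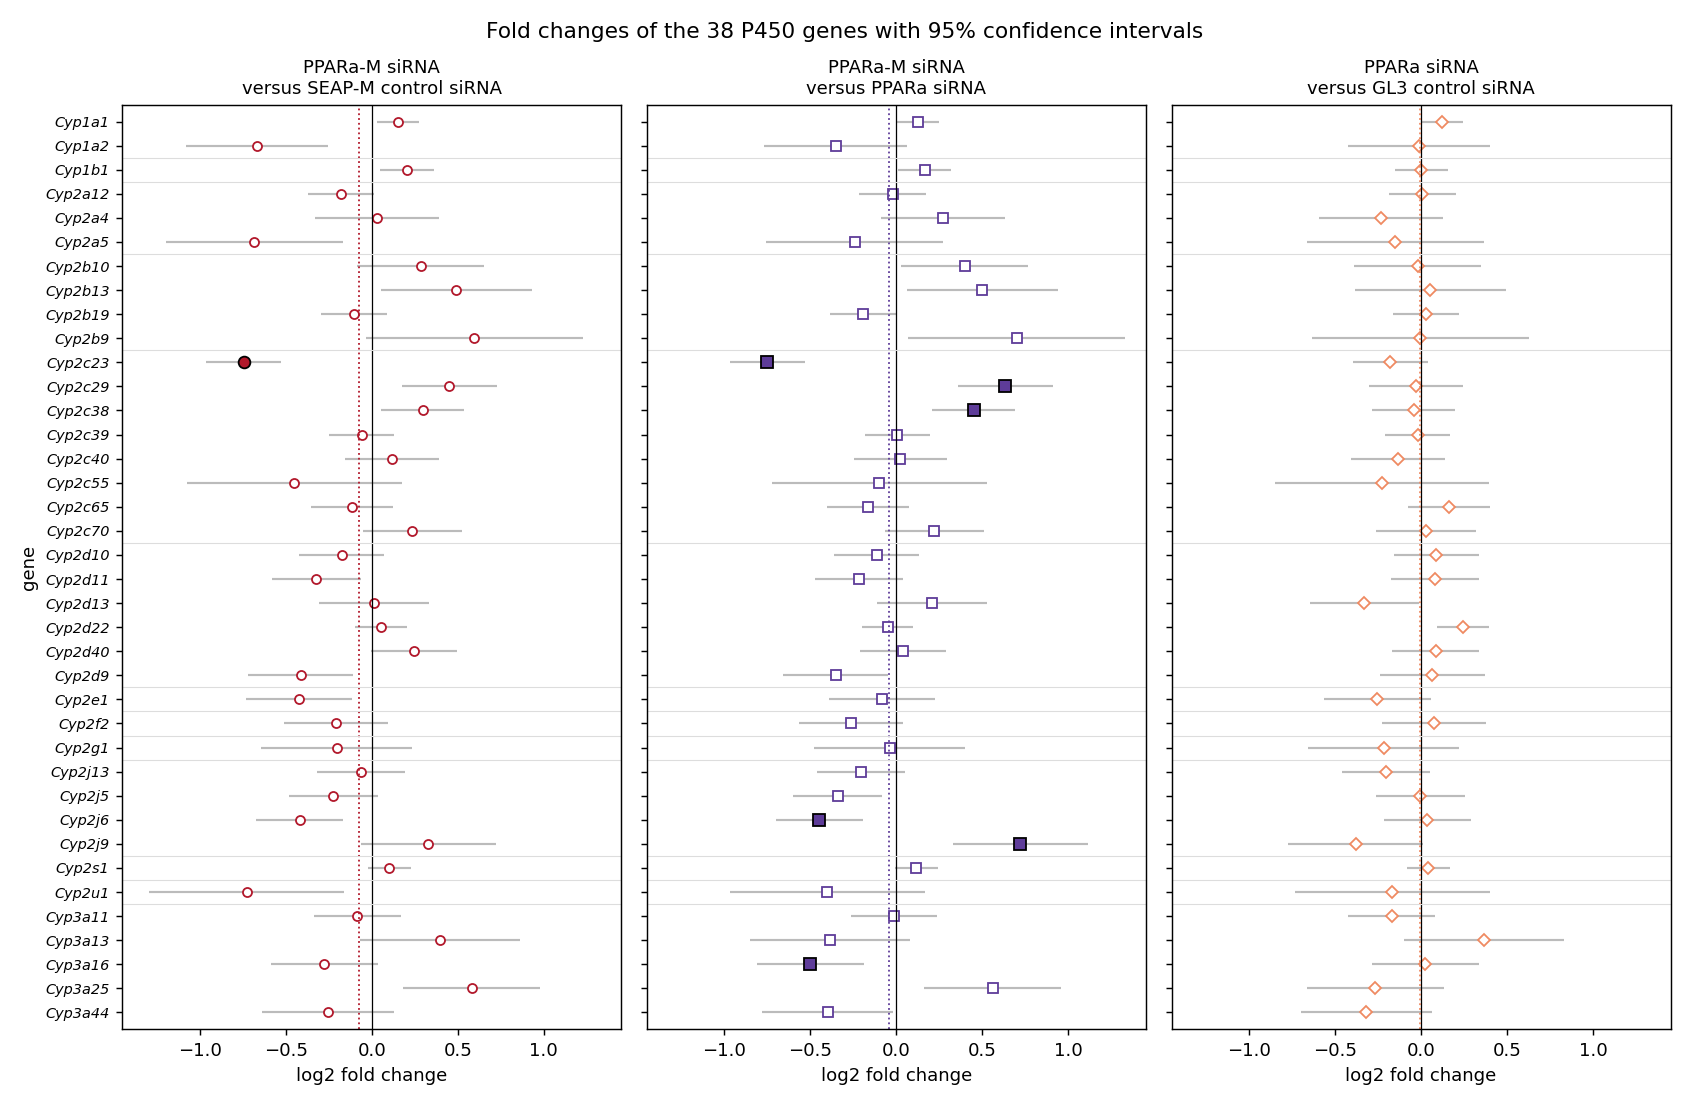
Log2 fold change (horizontal axes) of each of the 38 P450 genes (vertical axis) in 3 comparisons, with the 95% confidence interval from limma, where filled symbols passed an adjusted p under 0.05 and dotted lines give the median of the 38 genes. Cyp2c23 is the only filled symbol of PPARa-M siRNA against SEAP-M control siRNA, 6 are filled for PPARa-M siRNA against PPARa siRNA, and none for PPARa siRNA against GL3 control siRNA.

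Other Cyp2c genes went against Cyp2c23. Cyp2c29, a major hepatic P450 that CAR activators induce and that makes epoxides of arachidonic acid, had log2 ratios of 0.077, 0.52, 0.46 and 0.39 in PPARa-M siRNA mice and -0.31, -0.33, -0.23 and -0.21 in PPARa siRNA mice. The groups did not overlap. In SEAP-M control mice it was 0.36, -0.49, -0.090 and -0.13, in GL3 control mice -0.13, -0.23, -0.20 and -0.39, and in vehicle mice 0.073, 0.15, -0.074 and 0.18. Both PPARa siRNA and GL3 mice thus lay below all vehicle mice. Cyp2c29 rose 1.55-fold between PPARa-M siRNA and PPARa siRNA (log2 fold change 0.63, standard error 0.13, adjusted p = 0.00584 in limma), and all 3 of its probes were higher, by 0.52 to 0.80. The comparison with SEAP-M control siRNA gave 0.45 (adjusted p = 0.0696) and that with vehicle 0.28 (adjusted p = 0.206), while PPARa siRNA against vehicle gave -0.35 (adjusted p = 0.756). Without PPARa-M siRNA mice C and D the fold against PPARa siRNA was 1.48 (adjusted p = 0.0361).

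Cyp2c38, its close relative, followed it. Its log2 ratios were 0.092, 0.33, 0.34 and 0.25 in PPARa-M siRNA mice and -0.23, -0.26, -0.19 and -0.11 in PPARa siRNA mice, again without overlap. With SEAP-M siRNA they were 0.42, -0.34, -0.084 and -0.17, with GL3 siRNA -0.094, -0.15, -0.10 and -0.26, and with vehicle 0.0083, 0.070, -0.11 and 0.16. It rose 1.37-fold between PPARa-M and PPARa siRNA (log2 fold change 0.45, standard error 0.11, adjusted p = 0.0199 in limma), a call that was lost without PPARa-M siRNA mouse B (adjusted p = 0.0507), mouse C (adjusted p = 0.0501) or mice C and D (0.41, adjusted p = 0.0800). Cyp2c29 and Cyp2c38 lay on the same side of the pool in all 20 mice, and their ratios in a mouse differed by a median of 0.076. The array's probes for genes this alike may not tell them apart, since probe sequences were not used here.

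The remaining Cyp2c genes were not called. Cyp2c39, a hydroxylase of retinoic acid that lies between Cyp2c29 and Cyp2c38, had group means between -0.046 and 0.019 and did not share their pattern. Cyp2c40 averaged 0.31 ± 0.14 with PPARa-M siRNA, 0.29 ± 0.23 with PPARa siRNA, 0.20 ± 0.17 with SEAP-M, 0.42 ± 0.22 with GL3 and 0.015 ± 0.19 with vehicle (SD, n = 4 mice each), and was above the pool in 17 of 20 mice. Cyp2c55 had the largest spread within a group, with -0.031, 0.28, -1.25 and -1.18 in PPARa-M siRNA mice, against 0.28, -0.32, -0.043 and -0.31 in SEAP-M control mice. Its low values were those of mice C and D, the ones with high interferon-stimulated genes, and PPARa siRNA mouse D, with high acute phase genes, was low too at -0.93. The log2 fold change of Cyp2c55 against SEAP-M mice was -0.45 (adjusted p = 0.436 in limma), and 0.22 (adjusted p = 0.655) without mice C and D. Against vehicle it was -0.54 (adjusted p = 0.282) with all mice and 0.13 (adjusted p = 0.786) without C and D. Cyp2c70, which forms muricholic acids from bile acids, and Cyp2c65 had fold changes within 0.31 of 0 on the log2 scale in all comparisons.

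In the Cyp2j subfamily, whose enzymes epoxidise arachidonic acid, neighbouring genes moved in opposite directions. Cyp2j6 had log2 ratios of -0.59, -0.66, -0.48 and -0.46 in PPARa-M siRNA mice and 0.062, -0.12, 0.20 and -0.54 in PPARa siRNA mice, where mouse D was low. With SEAP-M siRNA they were -0.25, -0.20, 0.022 and -0.097, with GL3 siRNA -0.10, -0.24, -0.14 and -0.059, and with vehicle 0.20, -0.072, -0.16 and 0.0076. All PPARa-M siRNA mice lay below all control siRNA and vehicle mice. In limma Cyp2j6 fell by 0.54 against vehicle (standard error 0.12, adjusted p = 0.0150) and by 0.45 against PPARa siRNA (adjusted p = 0.0262), whereas -0.42 against SEAP-M control siRNA did not pass (adjusted p = 0.0684). The call against vehicle was lost without vehicle mouse D (adjusted p = 0.0539), and the one against PPARa siRNA without PPARa-M siRNA mouse A (0.0555) or B (0.0691) or PPARa siRNA mouse A (0.0792) or C (0.0896), these values being adjusted p. Without PPARa siRNA mouse D, Cyp2j6 was also called against SEAP-M control siRNA.

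Cyp2j9 ran the other way. It stood at 0.063, 0.16, 0.82 and 0.89 in PPARa-M siRNA mice and at -0.46, 0.071, -0.47 and -0.099 in PPARa siRNA mice. SEAP-M control mice had 0.36, 0.072, 0.059 and 0.12, GL3 control mice 0.40, 0.27, 0.052 and -0.16, and vehicle mice -0.30, 0.069, 0.30 and 0.035. Only PPARa-M siRNA mice C and D stood above the other 18. Cyp2j9 rose 1.65-fold between PPARa-M and PPARa siRNA (log2 fold change 0.72, standard error 0.19, adjusted p = 0.0218 in limma), and without mice C and D the log2 fold change was 0.35 (adjusted p = 0.217). The call was also lost without PPARa-M siRNA mouse C (adjusted p = 0.0634) or D (0.0655) alone, and without PPARa siRNA mouse A (0.0665) or C (0.0667).

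Cyp2j5, which is expressed in kidney and liver, had -0.37, -0.62, -0.31 and -0.29 in PPARa-M siRNA mice, against 0.050, -0.045, -0.28 and 0.43 in vehicle mice, without overlap but with PPARa-M siRNA mouse D and vehicle mouse C almost level. It fell by 0.43 on the log2 scale against vehicle (standard error 0.12, adjusted p = 0.0414 in limma), with all 3 probes lower by 0.35 to 0.49. With PPARa siRNA its ratios were 0.10, -0.17, -0.030 and -0.11, with SEAP-M siRNA 0.051, -0.27, -0.19 and -0.29, and with GL3 siRNA 0.12, -0.18, -0.063 and -0.080. The call sat near the threshold and was lost when any of 10 of the 20 mice was left out, with the highest adjusted p, 0.159, without vehicle mouse D. Cyp2j13 had its highest mean with GL3 siRNA, 0.24 ± 0.12, and its lowest with PPARa-M siRNA, -0.16 ± 0.23 (SD, n = 4 each).

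**Figure D3:**
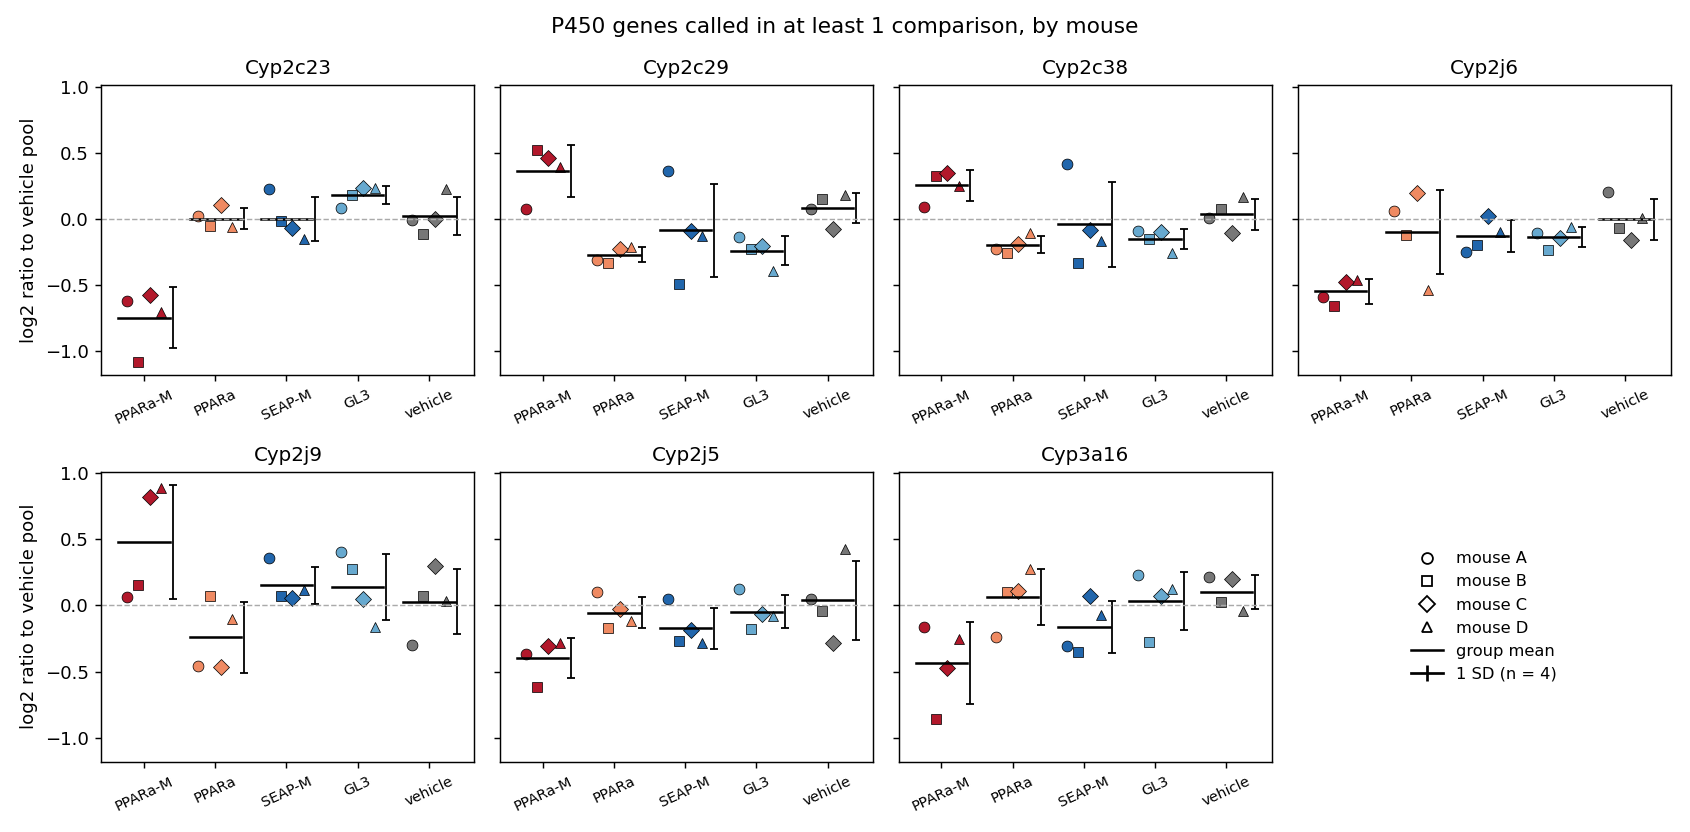
Log2 ratio to the vehicle pool (vertical axes) of the 7 P450 genes called in at least 1 comparison, in each mouse (symbols A to D) of the 5 groups (horizontal axes), with the group mean (bar) and 1 SD (error bar, n = 4). Cyp2c23 separates the 4 PPARa-M siRNA mice from the other 16, while PPARa-M siRNA mice C and D, at 0.82 and 0.89, carry the high mean of Cyp2j9.

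Of the Cyp3a genes, which metabolise a large share of drugs, only Cyp3a16 was called. Cyp3a16, known in mice mainly from fetal and newborn liver, had -0.16, -0.86, -0.47 and -0.26 in PPARa-M siRNA mice and -0.24, 0.10, 0.11 and 0.27 in PPARa siRNA mice. It had -0.30, -0.35, 0.072 and -0.070 in SEAP-M control mice, 0.23, -0.28, 0.072 and 0.12 in GL3 control mice and 0.22, 0.028, 0.20 and -0.041 in vehicle mice. PPARa-M siRNA mice lay below all vehicle mice and overlapped the other groups. Cyp3a16 fell by 0.54 against vehicle (standard error 0.15, adjusted p = 0.0361 in limma) and by 0.50 against PPARa siRNA (adjusted p = 0.0423), with its 3 probes lower by 0.51 to 0.60 and by 0.42 to 0.64. Leaving out PPARa-M siRNA mouse B ended both calls (-0.40, adjusted p = 0.116, against vehicle and -0.36, adjusted p = 0.128, against PPARa siRNA), as did leaving out any of 5 other mice for the comparison with vehicle and any of 7 others for that with PPARa siRNA.

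Cyp3a11, the main Cyp3a enzyme of adult mouse liver and a PXR target, was below the pool in all 20 mice, vehicle mice included, with group means from -0.40 to -0.21 and no call. The ratios of Cyp3a41a, outside the rule, differed from those of Cyp3a11 by a median of 0.030 on the log2 scale and by 0.743 at most, in PPARa-M siRNA mouse B, where Cyp3a41a was above the pool at 0.27. Cyp3a25 stood at -0.13, -0.18, 0.72 and 0.80 in PPARa-M siRNA mice, where C and D were again the high ones, against -0.090, -0.56, -0.13 and -0.34 in SEAP-M control mice and 0.31, 0.36, 0.48 and -0.0096 in vehicle mice. Its fold change was 0.58 on the log2 scale against SEAP-M control siRNA (adjusted p = 0.103 in limma) but 0.015 against vehicle. Without mice C and D it was 0.12 against SEAP-M control siRNA (adjusted p = 0.662) and -0.44 against vehicle (adjusted p = 0.0540).

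Cyp3a13 and Cyp3a44 were among the 6 genes with the widest range of group means. Cyp3a13 had 0.19, -0.27, -0.12 and 1.03 in PPARa siRNA mice, with the high value in mouse D, against -0.012, 0.22, -0.40 and -0.44 in GL3 control mice, and -0.22, -0.48, 0.017 and -0.024 in PPARa-M siRNA mice, against -0.87, -0.57, -0.34 and -0.52 in SEAP-M control mice. Vehicle mice had -0.18, 0.0085, -0.18 and 0.22. The SEAP-M mice were the low group, and 3 of the 4 lay below all 16 others. Cyp3a44, higher in female than male liver, had 0.0080, -0.66, -0.40 and -0.51 in PPARa-M siRNA mice, -0.28, -0.057, -0.25 and 0.63 in PPARa siRNA mice and -0.45, -0.26, 0.23 and -0.064 in SEAP-M control mice. GL3 control mice had 0.40, 0.14, 0.38 and 0.39, and vehicle mice 0.13, 0.030, 0.31 and -0.0060. Its value against vehicle was -0.51 for PPARa-M siRNA (adjusted p = 0.0983 in limma).

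No Cyp2b gene was called with all mice. Cyp2b10 is the classic CAR target of mouse liver, and Cyp2b9 and Cyp2b13 are expressed chiefly in females. Cyp2b9 had 0.51, 1.05, -0.034 and -0.023 in PPARa-M siRNA mice, -0.70, -0.29, -0.63 and 0.33 in PPARa siRNA mice, -0.79, -0.12, 0.054 and -0.030 in SEAP-M control mice, -0.14, -0.34, -0.41 and -0.39 in GL3 control mice and -1.0, 0.41, -0.12 and 0.29 in vehicle mice. Vehicle mouse A had the lowest value of all 20 mice and PPARa-M siRNA mouse B the highest.

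Cyp2b13 ran along with it, at 0.39, 0.87, 0.059 and 0.093 with PPARa-M siRNA, -0.43, -0.048, -0.36 and 0.26 with PPARa siRNA, -0.57, -0.061, 0.080 and 0.0028 with SEAP-M, -0.038, -0.22, -0.30 and -0.24 with GL3, and -0.61, 0.31, -0.034 and 0.15 with vehicle. Between PPARa-M and PPARa siRNA the log2 fold changes were 0.70 for Cyp2b9 (adjusted p = 0.153), 0.50 for Cyp2b13 (adjusted p = 0.143) and 0.40 for Cyp2b10 (adjusted p = 0.168 in limma), none of which passed. Without PPARa-M siRNA mice C and D, Cyp2b9 (1.10, adjusted p = 0.0480) and Cyp2b13 (0.78, adjusted p = 0.0453) passed and Cyp2b10 (0.59, adjusted p = 0.0804) did not. That fit called 12.5% of all genes between these groups, where 9.02% were called with all mice. In the same fit none of the 3 passed against SEAP-M mice (adjusted p = 0.106, 0.0764 and 0.203 for Cyp2b9, Cyp2b13 and Cyp2b10) or against vehicle (0.103, 0.0723 and 0.228). Cyp2b10 and Cyp2b13 lay on the same side of the pool in 18 of 20 mice and differed by a median of 0.066. Between PPARa-M and PPARa siRNA, with all mice, the 3 probes of Cyp2b10 ranged from -0.15 to 0.76, so its mean joins probes that disagree. The 2 probes of Cyp2b13 gave 0.10 and 0.90, the same sign but far apart. Whether the probes tell Cyp2b10 and Cyp2b13 apart was not checked. Cyp2b19, a skin enzyme, did not follow them, with means between -0.10 and 0.094.

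Cyp2a5, which hydroxylates coumarin, had -0.49, -0.43, -0.83 and -0.79 in PPARa-M siRNA mice, -0.071, -0.28, -0.15 and -1.07 in PPARa siRNA mice, 0.69, -0.33, -0.14 and -0.027 in SEAP-M control mice, 0.036, -0.77, -0.17 and -0.065 in GL3 control mice and -0.13, -0.0076, -0.21 and 0.54 in vehicle mice. PPARa-M siRNA mice lay below all SEAP-M and vehicle mice, but the single lowest value was that of PPARa siRNA mouse D. The log2 fold changes of -0.68 against SEAP-M mice (standard error 0.24, adjusted p = 0.137 in limma) and -0.68 against vehicle (adjusted p = 0.0979) did not pass. Cyp2a4, a hydroxylase of steroids, and Cyp2a12 were not called either.

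The Cyp2d genes Cyp2d9, Cyp2d10 and Cyp2d11 were the most alike of all 703 pairs of members, with median differences in a mouse of 0.028 to 0.036 against 0.23 over all pairs. Cyp2d9, a male-predominant hydroxylase of testosterone, had -0.44, -0.98, -0.16 and -0.20 in PPARa-M siRNA mice, against 0.14, -0.044, -0.060 and -0.16 in SEAP-M control mice and 0.18, -0.030, -0.23 and 0.093 in vehicle mice. Here mice A and B were the low ones. Its fold change against SEAP-M control siRNA was -0.41 (adjusted p = 0.131 in limma) with all mice and -0.68 (adjusted p = 0.0222) without mice C and D. Against vehicle, leaving those mice out gave calls for Cyp2d9 (-0.71, adjusted p = 0.00703), Cyp2d10 (-0.39, adjusted p = 0.0495), Cyp2d11 (-0.48, adjusted p = 0.0337) and, in the higher direction, Cyp2s1 (0.19, adjusted p = 0.0458). Without mice C and D 13.4% of all genes were called against vehicle, where 7.28% were called with all mice. Against SEAP-M control siRNA the shares were 4.33% and 2.54%. With all mice the 3 probes of Cyp2d10 ranged from -0.37 to 0.090 against vehicle, so its mean joins probes that disagree. As with Cyp2c29 and Cyp2c38, the probes may not tell Cyp2d9, Cyp2d10 and Cyp2d11 apart.

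Cyp2d22 had the smallest p of its subfamily over the 5 groups. Its ratios were 0.025, 0.12, 0.094 and 0.015 in PPARa siRNA mice, against -0.13, -0.26, -0.17 and -0.15 in GL3 control mice, which did not overlap, and its log2 fold change of 0.24 (standard error 0.07) did not pass over all genes (adjusted p = 0.582 in limma). In PPARa-M siRNA mice it had 0.0066, 0.16, -0.034 and -0.080, against -0.086, -0.10, -0.0076 and 0.023 in SEAP-M control mice, and vehicle mice had 0.15, -0.0013, -0.21 and -0.11.

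Family 1, whose genes Ahr controls, gave no call. Cyp1a2, a caffeine-metabolising enzyme of hepatocytes, had -0.091, 0.090, -0.56 and -0.63 in PPARa-M siRNA mice, against 1.05, 0.055, 0.16 and 0.20 in SEAP-M control mice, and its fold change of -0.67 did not pass (adjusted p = 0.0731 in limma). SEAP-M mouse A was high and PPARa-M siRNA mice C and D were low, and without C and D the value was -0.37 (adjusted p = 0.344). Against vehicle it was -0.32 with all mice and -0.026 without C and D (adjusted p = 0.956). Cyp1a1 had group means between -0.097 and 0.15, and its probes differed in sign in 6 of the 9 comparisons, all 3 of those between PPARa-M siRNA and another group among them. Cyp1b1 had its highest mean with PPARa-M siRNA, 0.18 ± 0.12, against -0.016 ± 0.12 with vehicle (SD, n = 4 each).

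Among the genes that are alone in their subfamily, Cyp2u1, a hydroxylase of long-chain fatty acids, had the widest range. It had -0.26, -0.52, -0.18 and -0.10 in PPARa-M siRNA mice, 0.58, 0.082, 0.42 and -0.53 in PPARa siRNA mice, 1.19, 0.22, -0.10 and 0.54 in SEAP-M control mice, 0.66, -0.25, 0.38 and 0.42 in GL3 control mice and 0.48, 0.088, -0.38 and -0.095 in vehicle mice. All 4 PPARa-M siRNA mice were below the pool, but the vehicle mice covered most of that range, and -0.73 against SEAP-M control siRNA did not pass (standard error 0.27, adjusted p = 0.149 in limma). Cyp2e1, which oxidises ethanol and paracetamol, averaged -0.40 ± 0.29 with PPARa-M siRNA and 0.022 ± 0.22 with SEAP-M siRNA (SD, n = 4 each, adjusted p = 0.127 in limma). Its means were -0.32 ± 0.15 with PPARa siRNA, -0.064 ± 0.24 with GL3 and -0.14 ± 0.18 with vehicle, so it was low with both Ppara siRNAs. Cyp2f2, Cyp2g1 and Cyp2s1 were not called.

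**Figure D4:**
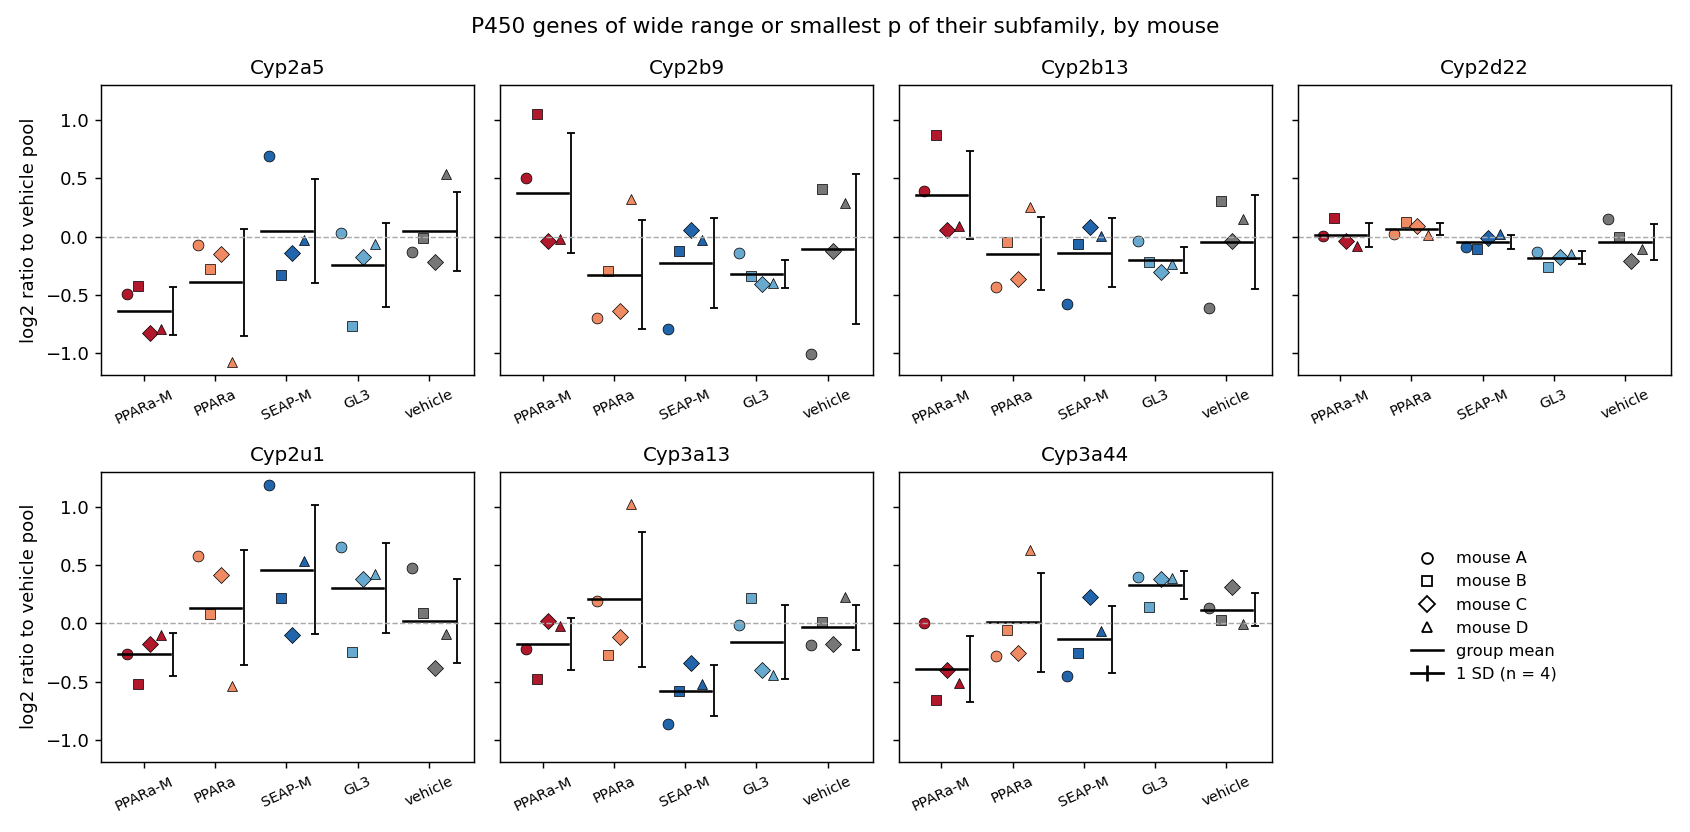
Log2 ratio to the vehicle pool (vertical axes) of 7 P450 genes that were not called but had a wide range of group means or the smallest p of their subfamily, in each mouse (symbols A to D) of the 5 groups (horizontal axes), with the group mean (bar) and 1 SD (error bar, n = 4). Single mice stand out, such as PPARa siRNA mouse D for Cyp2a5 (-1.07) and Cyp3a13 (1.03) and vehicle mouse A for Cyp2b9 (-1.0).

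Set side by side, the subfamilies with 2 or more genes differed in sign. Between PPARa-M siRNA and PPARa siRNA the median log2 fold change was 0.45 for Cyp2b, 0.014 for Cyp2c, -0.021 for Cyp2a, -0.082 for Cyp2d, -0.11 for Cyp1a, -0.27 for Cyp2j and -0.38 for Cyp3a, beside -0.033 over all genes. Between PPARa-M and SEAP-M siRNA the medians were 0.39 for Cyp2b, 0.030 for Cyp2c, -0.080 for Cyp2d, -0.083 for Cyp3a, -0.14 for Cyp2j, -0.18 for Cyp2a and -0.26 for Cyp1a. The Cyp2c median near 0 hides the widest split, from -0.75 for Cyp2c23 to 0.63 for Cyp2c29 in the comparison of the Ppara siRNAs. PPARa siRNA against GL3 control siRNA left every such median between -0.17 and 0.083. These medians describe few and related genes and carry no test.

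Where a gene had several probes, they mostly moved the same way. Between PPARa-M and PPARa siRNA, 5 of the 20 genes with 2 or 3 probes held probes of opposite sign: Cyp1a1, Cyp2b10, Cyp2d10, Cyp2e1 and Cyp3a11. None of these was called. The probes of the called genes Cyp2c29, Cyp2j6 and Cyp3a16 lay within 0.28 of each other on the log2 scale, whereas Cyp2c23, Cyp2c38 and Cyp2j9 had 1 probe each.

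**Figure D5:**
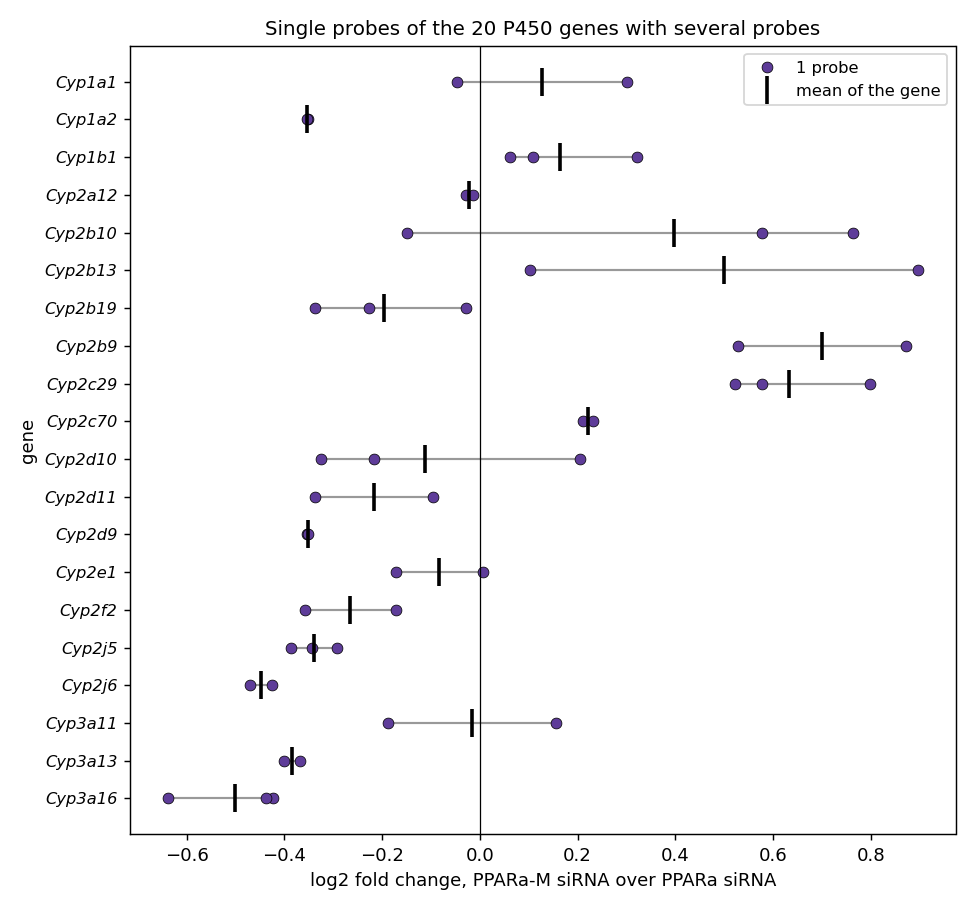
Log2 fold change between PPARa-M siRNA and PPARa siRNA (horizontal axis) of each single probe (points) of the 20 P450 genes with 2 or 3 probes (vertical axis), with the mean of the gene (black tick). The probes of Cyp2c29 (0.52 to 0.80), Cyp2j6 (-0.47 to -0.42) and Cyp3a16 (-0.64 to -0.42) lie on 1 side of 0, and those of Cyp2b10 run from -0.15 to 0.76.

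The receptors that control these genes were measured on the same arrays. CAR (Nr1i3) had log2 ratios of 0.33, 0.53, 0.98 and 0.94 in PPARa-M siRNA mice, against -0.25, -0.21, -0.089 and -0.33 in PPARa siRNA mice, and -0.022, 0.24, -0.25 and 0.068 in vehicle mice. All PPARa-M siRNA mice lay above all mice of both other groups. CAR mRNA rose 1.88-fold against PPARa siRNA (log2 fold change 0.91, standard error 0.16, adjusted p = 0.00189 in limma) and 1.61-fold against vehicle (adjusted p = 0.0189). With SEAP-M siRNA the ratios of Nr1i3 were 0.66, -0.18, 0.42 and 0.22 and overlapped, and 0.41 did not pass (adjusted p = 0.168). Without PPARa-M siRNA mice C and D the log2 fold changes of Nr1i3 were 0.65 against PPARa siRNA (adjusted p = 0.0237), 0.42 against vehicle (adjusted p = 0.122) and 0.15 against SEAP-M mice (adjusted p = 0.669).

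PXR (Nr1i2) had log2 ratios of -0.14, 0.30, -0.090 and 0.068 in PPARa-M siRNA mice, against -0.14, -0.0023, -0.31 and -0.27 in PPARa siRNA mice and -0.10, 0.045, 0.024 and 0.0051 in vehicle mice, and was not called. Ahr was not called either, with -0.37, -0.34, 0.13 and 0.24 in PPARa-M siRNA mice, against -0.33, -0.66, -0.32 and 0.37 in PPARa siRNA mice. Of 17 receptors and transcription factors of P450 genes on the array, 1 rose (Nr1i3) and 1 fell between PPARa-M and PPARa siRNA, beside 4.79% of all genes that rose and 4.23% that fell. The one that fell was Cebpa, a factor of hepatocyte differentiation (log2 fold change -0.46, adjusted p = 0.00535 in limma).

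Of 12 genes for redox partners and heme synthesis, none rose and 2 fell between PPARa-M and PPARa siRNA, where 4.79% of all genes rose and 4.23% fell. The 2 were Cyb5b (-0.50, adjusted p = 0.0194 in limma) and Cyb5r3 (-0.35, adjusted p = 0.0126), which encode a cytochrome b5 and the reductase of cytochrome b5. Against SEAP-M control siRNA the only call was Urod, an enzyme of heme synthesis (-0.25, adjusted p = 0.0499 in limma), just under the threshold. There 2.54% of all genes were called and 1.51% were lower. Against vehicle Cyb5r3 alone was called, and it was lower, where 3.91% of all genes were lower. The list median was -0.16 between PPARa-M and PPARa siRNA, beside -0.033 over all genes. P450 oxidoreductase (Por) was not analysed here.

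Of 15 targets of CAR or PXR outside the P450 families, 1 fell and none rose between PPARa-M and PPARa siRNA, with 4.23% of all genes lower. It was Aldh1a7, an aldehyde dehydrogenase, which fell by 0.86 on the log2 scale (adjusted p = 6.8e-05 in limma), and by 1.21 against vehicle (adjusted p = 2.92e-06), where Aldh1a1 (-0.63, adjusted p = 0.0487) and Gsta4 (-0.69, adjusted p = 0.0119) fell as well, beside 3.91% of all genes. Among 6 targets of Ahr outside the families, Tiparp alone was called, with a log2 fold change of -0.37 (adjusted p = 0.0312), for PPARa-M against PPARa siRNA, where 4.23% of all genes fell.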

How the data were processed

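Liver RNA of 20 mice was hybridised to 2-colour oligonucleotide arrays (Cy3 and Cy5) against a pool of 4 vehicle mice. The authors deposited log10 ratios, limited to 2 in size. No spot intensities were used, and how the authors corrected background and normalised the channels is not given in the sources used here. Array medians lay near 0. The study describes further vehicle profiles, and 4 vehicle mice were analysed here.

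Of 23493 probes, 18790 carried 1 gene symbol in the platform annotation, 4638 none and 65 several. The deposited log10 ratios were converted to log2 and averaged over the probes of each gene. All 20 arrays were fitted by 1 linear model with a mean for each group (limma 3.58.1 in R 4.3.3, empirical Bayes variances), and p-values were adjusted by Benjamini and Hochberg over 15252 genes. The p-values measure the spread between 4 mice per group, which limits their precision. The fit was tested on simulated data.

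P450 genes were named in detail where they were called in any comparison, had the smallest F-test p of a subfamily of 3 or more genes, or were among the 6 genes with the widest range of group means. Cyp2c40, Cyp2c55, Cyp3a25, Cyp2d9, Cyp1a2 and Cyp2e1 were added after their values were seen. Fold changes of Cyp2b10, Cyp2d10, Cyp2d11 and Cyp2s1 are given too, though these genes also fall outside that rule. The members and all gene lists were chosen with earlier results of these data known. Promoters came from RefSeq (GRCm38.p6) and were searched with Python 3.11.15 and Biopython 1.88. The alternatives were array centring, quantile and interquartile scaling, array weights, robust moderation, the replicate letter as a block, the median of the probes or each probe alone, a filter on small ratios, fits of the compared groups alone, a threshold of 0.01, and leaving out each mouse.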

Additional observations from a re-analysis of the deposited data

Results flagged for a closer look

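In GL3 control siRNA mice Cyp3a44 stood at 0.14 in mouse B, while the other 3 mice lay between 0.38 and 0.40 on the log2 scale. The gap was 0.942 of the whole range of the group, above Dixon's 95% critical value for 4 mice. Of 70 groups of 4 tested, this was the only one past that value, and chance passes it in about 1 of 20 groups.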

How the results depend on the processing

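None of the called fold changes of named P450 genes changed sign in the alternatives run on them. Some that were not called did, such as that of Cyp3a25 against vehicle without PPARa-M siRNA mice C and D. Quantile normalization gave 0 for both Ppara siRNAs against both controls, 0 for PPARa-M siRNA against SEAP-M control siRNA, 1 against vehicle, 1 against PPARa siRNA and 1 over the 5 groups, and interquartile scaling gave 1 against vehicle, 2 against PPARa siRNA and 1 over the 5 groups. Array quality weights gave 2 for both Ppara siRNAs against both controls, 6 against SEAP-M control siRNA, 3 for the difference between the effects and 8 over the 5 groups. The filter on small ratios, which tests fewer genes, gave 2 against SEAP-M control siRNA, 2 against vehicle, 3 against PPARa siRNA and 1 over the 5 groups. Fits of the compared groups alone, with fewer mice, gave 0 against SEAP-M control siRNA, 2 against vehicle and 3 against PPARa siRNA. A threshold of 0.01 gave 1 against vehicle, 2 against PPARa siRNA and 1 over the 5 groups. Without PPARa-M siRNA mice C and D, an alternative chosen after seeing the data, the counts were 2 against SEAP-M control siRNA (with 660 of 15252 genes called, against 388 with all mice) and 8 against vehicle (2049 of 15252, against 1110), and 7 against PPARa siRNA (1912 of 15252, against 1375). Why the counts differed between these settings was not tested. Except without mice C and D, the share of all genes called in each setting is not given here. These counts therefore do not show whether P450 genes moved differently from other genes.

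Leaving out each mouse in turn gave 1 to 3 calls for PPARa-M siRNA against SEAP-M control siRNA (3 without PPARa-M siRNA mouse A, PPARa-M siRNA mouse B or SEAP-M mouse A, and 2 without PPARa siRNA mouse D). Against vehicle it gave 1 to 5 (1 without vehicle mouse D, and 2 without vehicle mouse A, vehicle mouse B or PPARa-M siRNA mouse B). Against PPARa siRNA it gave 3 to 7 (3 without PPARa-M siRNA mouse C or PPARa siRNA mouse C). The difference between the effects gave 0 to 1 (1, Cyp2j6, without PPARa siRNA mouse D), and the 5 groups gave 1 to 4 (1 without PPARa-M siRNA mouse B, C or D). In these fits Cyp2c23 kept its calls between groups, and Cyp2c29 its call against PPARa siRNA. Where the F test over the 5 groups gave 1 call, it did not hold both genes. Quantile normalization took the call of Cyp2c29 against PPARa siRNA (adjusted p = 0.0848 in limma). The share of all genes called without each mouse is not given here either.

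The labels do not tie mice of the same letter in different groups, and they were not taken as pairs. The mean correlation of their deviations was 0.0232 over 40 pairs (-0.200 to 0.312), of which 13 were over 0.1. Between mice of different letters in different groups the mean was -0.0077. Of the 20 mice, 10 correlated best with a mouse of their own letter, a hint from the data and not the design. With the letter as a replicate block the counts were 1 against SEAP-M control siRNA, 4 against vehicle, 6 against PPARa siRNA and 2 over the 5 groups, again without the share of all genes.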
